A study of Mus musculus with 23 samples.

Results

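Hox genes, which encode homeodomain transcription factors arranged in 4 clusters, were read in 3 arterial segments of adult mice along the body axis. Their members were taken as all genes on the array whose annotated symbol consists of Hox, a cluster letter (a to d) and a paralogue number. There were 38 such genes, carried by 57 probes, among 19057 genes with a single symbol on the array. Tissue came from male C57BL/6J mice that had received Ang II at 490 ng/kg/min from a subcutaneous minipump for 14 days, begun at 12 weeks of age (AngII), or vehicle over the same time (Sham). There were 3 AngII and 3 Sham arrays of abdominal aorta and 3 AngII and 3 Sham arrays of thoracic aorta. Mesenteric arteries, taken as branches of the superior mesenteric artery, gave 6 AngII and 5 Sham arrays, which makes 23 arrays. The RNA on an array was a pool over 2 mice and 1 kind of vessel, so p-values measure the spread between pools. Some pools of different vessels shared mice, and which ones is not given in the sources used here, so tests between vessels treated arrays as independent.

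In vertebrates the order of Hox genes along a chromosome matches the order of their expression along the embryo. Genes with low paralogue numbers are active from the hindbrain backwards, and genes with high numbers only further towards the tail. Paralogues of the same number in different clusters descend from 1 ancestral gene and often act redundantly on the skeleton and nervous system. Hox proteins bind DNA together with TALE partners (Pbx, Meis and Pknox), and Polycomb and Trithorax proteins keep the active or silent state of the clusters in adult cells. Vascular smooth muscle and fibroblasts of adult arteries are known to retain Hox expression that differs between regions.

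The Illumina WG-6 v2.0 BeadChip held probes for 45281 transcripts, and between 17432 and 18657 of them were detected per array (detection p under 0.01). Values below are normalised log2 signals, and a difference of 1 on this scale is a 2-fold difference. An offset added during background correction narrows differences of dim probes, so fold changes of genes near background are understated. Levels of different probes cannot be set against each other, and each comparison is within 1 probe. Defining markers of smooth muscle were detected on all arrays (8 of 8), and 7 of 8 endothelial markers were, without Kdr. Mesenteric arrays were higher than aortic arrays in the summed signal of endothelial, Schwann cell and lymphocyte markers. In pooled tissue, fewer cells of a type and less RNA per cell cannot be told apart.

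Of the 38 Hox genes, 14 were detected on all 23 arrays, 10 on some arrays and 14 on none. Detection was read by cluster and paralogue number for the probe with the highest mean signal of each gene. On Sham abdominal arrays 20 genes were detected on every array, against 15 on Sham thoracic arrays and 19 on Sham mesenteric arrays. The vessels differed in the Hoxc and Hoxd clusters. In Sham thoracic aorta the highest Hoxc gene detected was Hoxc6, and the highest Hoxd genes were Hoxd4 on 3 of 3 arrays and Hoxd8 on 1 of 3. In Sham abdominal aorta detection extended to Hoxc10 and to Hoxd10, with Hoxd11 on 1 of 3 arrays. In Sham mesenteric arteries Hoxc9 was detected on 5 of 5 arrays, Hoxc10 on 4 of 5 and Hoxd3, Hoxd4, Hoxd8, Hoxd9 and Hoxd10 on 5 of 5. In the Hoxb cluster all 3 vessels had the same 6 genes, Hoxb2 to Hoxb7, on every array. Hoxb9 was detected on 2 of 5 Sham mesenteric arrays and on no Sham aortic array.

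**Figure D1:**
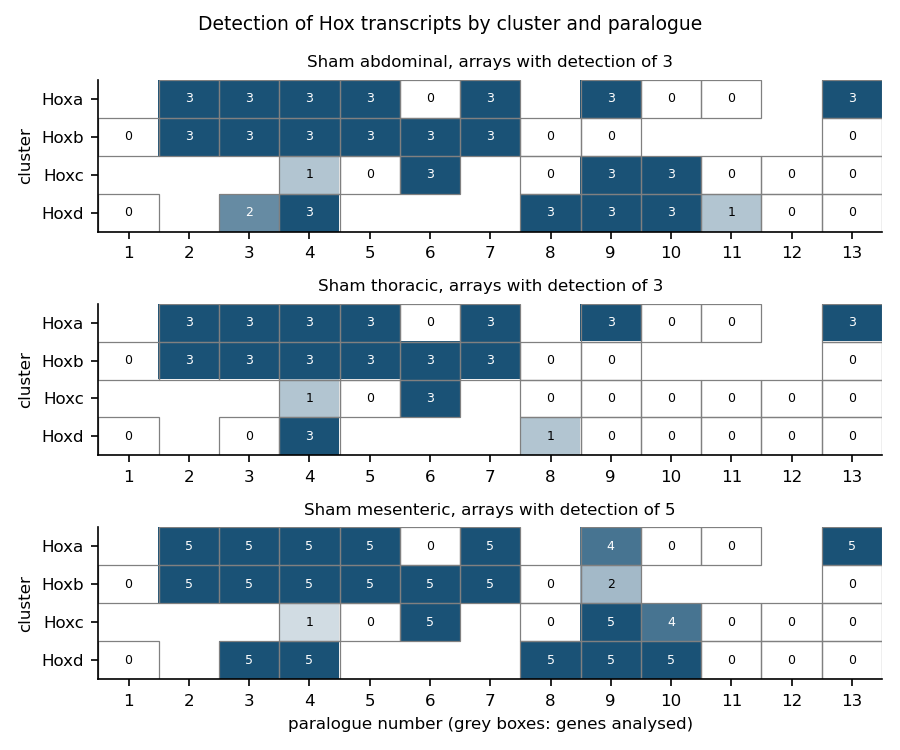
Number of Sham arrays on which each Hox gene was detected (detection p under 0.01), by cluster (rows) and paralogue number (columns), for abdominal aorta (3 arrays), thoracic aorta (3 arrays) and mesenteric arteries (5 arrays). Darker boxes mark a larger share of the arrays, boxes hold the number, and positions with no box were not analysed here. Hoxc9, Hoxc10, Hoxd9 and Hoxd10 are detected on 3 of 3 abdominal arrays and on 0 of 3 thoracic arrays.

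The genes detected on no array were Hoxa6, Hoxa10, Hoxa11, Hoxb1, Hoxb8, Hoxb13, Hoxc5, Hoxc8, Hoxc11, Hoxc12, Hoxc13, Hoxd1, Hoxd12 and Hoxd13. Their probes gave no signal above background, which does not show that a transcript was absent. Hoxd11 was detected on 2 of 23 arrays. These 15 genes were below the filter of detection on at least 3 arrays and were not tested, which left 23 Hox genes with 32 probes. The filter admits a gene that is detected in 1 vessel only, so the counts of called genes below describe the 23 genes tested and not all 38. Hoxa13, known for limb and urogenital development, was detected on all 23 arrays by 1 of its 3 probes and on none by the other 2.

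Of the Hox genes, 22 had a window around a start site in RefSeq (GRCm38.p6, 250 bases before to 50 after the start), 2 of them with 2 windows, 24 in all. Hoxc9 and Hoxc10 were not among them. Sequences of 4 members that were higher in abdominal than in thoracic aorta are shown, 5′ to 3′ on the strand of the gene, since these genes carry the largest abdominal to thoracic differences of the Hoxa and Hoxd clusters. Capitals mark a match on either strand to one of 3 motifs. The CCAAT box is spelled by its name, the TATA box was searched as TATAAA, and the GC box was searched as GGGCGG.
Hoxd4, chr2:74721728-74722027, plus strand: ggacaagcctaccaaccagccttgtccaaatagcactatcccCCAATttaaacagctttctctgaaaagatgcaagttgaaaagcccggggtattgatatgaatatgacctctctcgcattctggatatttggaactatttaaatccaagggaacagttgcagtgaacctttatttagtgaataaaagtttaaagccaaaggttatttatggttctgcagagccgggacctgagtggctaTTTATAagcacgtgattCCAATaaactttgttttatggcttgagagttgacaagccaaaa
Hoxd8, chr2:74704365-74704664, plus strand: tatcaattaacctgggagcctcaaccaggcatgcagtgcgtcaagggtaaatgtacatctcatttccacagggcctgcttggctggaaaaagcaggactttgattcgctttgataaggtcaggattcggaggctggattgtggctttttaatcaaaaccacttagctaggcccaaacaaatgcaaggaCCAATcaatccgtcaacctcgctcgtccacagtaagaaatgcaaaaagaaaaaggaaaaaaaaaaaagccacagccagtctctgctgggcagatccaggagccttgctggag
Hoxd9, chr2:74697513-74697812, plus strand: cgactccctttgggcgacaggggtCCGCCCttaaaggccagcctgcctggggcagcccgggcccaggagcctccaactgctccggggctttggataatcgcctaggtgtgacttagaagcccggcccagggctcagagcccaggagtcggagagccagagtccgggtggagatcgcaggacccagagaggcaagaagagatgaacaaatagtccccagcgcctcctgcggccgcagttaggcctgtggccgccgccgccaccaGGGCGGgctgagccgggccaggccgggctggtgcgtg
Hoxa9, chr6:52227321-52227620, minus strand: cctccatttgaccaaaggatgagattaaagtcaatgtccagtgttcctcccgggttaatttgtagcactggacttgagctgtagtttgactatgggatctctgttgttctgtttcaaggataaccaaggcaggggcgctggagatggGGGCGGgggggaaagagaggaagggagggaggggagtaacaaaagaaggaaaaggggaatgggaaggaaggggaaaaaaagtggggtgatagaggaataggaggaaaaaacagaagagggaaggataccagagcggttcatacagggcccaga

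The Hoxd8 window held 1 CCAAT box, the Hoxd4 window 2 CCAAT boxes and 1 TATA box, the Hoxd9 window 2 GC boxes and the Hoxa9 window 1 GC box. In the Hoxd4 window the TATAAA match was on the strand opposite to the gene, at -10 to -5 from the start. Its second CCAAT match lay after the start, at 8 to 12. These are matches of letters, and whether they act in the promoter was not tested. Over all 32851 windows of the same length, 37.4% held a CCAAT box, 13.6% a TATA box and 35.7% a GC box on either strand. A composite site of Pbx and Hox proteins (TGATTNAT) was in 2 of the 24 Hox windows, those of Hoxa2 and Hoxd11, and in 3.22% of all windows. A Meis and Pknox site (TGACAG) was in 2 of the 24 Hox windows, those of Hoxa2 and Hoxa3, and in 19.2% of all windows. The Hoxd9 window held 20 CpG dinucleotides, against 4 for Hoxd4, 6 for Hoxd8 and 4 for Hoxa9, with a median of 7 over all windows. None of these motifs was in all 4 of the windows shown.

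Between the aortic segments, most Hoxc and all tested Hoxd genes were higher in Sham abdominal aorta as compared to Sham thoracic aorta, and most Hoxb genes were lower. Of the 23 genes tested, 10 were higher and 9 lower in abdominal aorta at an adjusted p under 0.05 in limma. Of all 20585 transcripts tested, 7.35% were called higher and 6.45% lower, 13.8% in all. By cluster, 5 of 5 Hoxd genes and 3 of 4 Hoxc genes were higher, 6 of 7 Hoxb genes were lower, and of 7 Hoxa genes 2 were higher and 3 lower. The median difference was 2.36 for Hoxd, 2.58 for Hoxc, -1.36 for Hoxb and -0.33 for Hoxa genes, with -0.01 over all transcripts. Abdominal and thoracic Sham arrays did not overlap for 11 members that were higher and 10 that were lower, against 33.5% of all transcripts in either direction. Arrays were assigned to groups from the initials in the column names of the intensity table. The authors' log2 values, whose arrays carry full titles, gave an abdominal minus thoracic difference of 2.42 for Hoxc10 (adjusted p = 1.38e-09) and -1.44 for Hoxb5 (adjusted p = 4.54e-10) in limma.

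Hoxc10, a gene of lumbar and hindlimb levels in the mouse embryo, gave 9.29, 9.58 and 9.23 on the 3 Sham abdominal arrays, 4.39, 4.38 and 4.25 on the 3 Sham thoracic arrays and 5.71, 6.10, 5.43, 6.15 and 4.29 on the 5 Sham mesenteric arrays. All 3 abdominal arrays were far above every other array, thoracic aorta was undetected on 3 of 3 arrays, and the mesenteric mean lay between. The mesenteric array at 4.29 was undetected and overlapped the thoracic arrays. Hoxc10 was at least 20.5-fold higher in abdominal as compared to thoracic aorta, taking thoracic arrays at the lowest detected signal (adjusted p = 6.78e-09), and a second Hoxc10 probe gave at least 10.6-fold. Here and below, a p-value beside such a bound tests the limma difference, and the bound itself was not tested. Hoxc9, which in the mouse spinal cord separates thoracic from limb levels, gave 8.75, 8.66 and 8.92 on the 3 Sham abdominal arrays, 4.38, 4.70 and 4.82 on the 3 Sham thoracic arrays and 7.00, 6.88, 6.56, 7.10 and 6.16 on the 5 Sham mesenteric arrays. The order of the Hoxc9 means was the same, abdominal above mesenteric above thoracic, here with no overlap between vessels. Abdominal aorta was at least 13.7-fold above thoracic aorta for Hoxc9 (adjusted p = 9.61e-10). Hoxc6, a gene of brachial and upper thoracic levels, had 10.10, 9.77 and 9.98 on the 3 Sham abdominal arrays, 8.90, 8.81 and 9.08 on the 3 Sham thoracic arrays and 10.02, 9.65, 10.12, 9.97 and 10.22 on the 5 Sham mesenteric arrays. Abdominal and mesenteric values overlapped and thoracic values were below both, with an abdominal minus thoracic difference of 1.02 ± 0.16 (SE, adjusted p = 9.13e-05).

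Hoxd8 is a central gene of its cluster, and its values were 8.47, 8.42 and 8.64 on the 3 Sham abdominal arrays, 4.84, 5.43 and 4.94 on the 3 Sham thoracic arrays and 7.92, 8.26, 7.94, 8.37 and 8.01 on the 5 Sham mesenteric arrays. It was detected on 1 of 3 thoracic arrays, and the abdominal minus thoracic difference was 3.44 ± 0.15 (SE, adjusted p = 3.62e-13). Every thoracic array was below every array of the other vessels. Hoxd9, which shapes lumbar and sacral vertebrae in mice with its paralogues, had 7.47, 7.51 and 7.58 on the 3 Sham abdominal arrays, 4.58, 4.70 and 4.87 on the 3 Sham thoracic arrays and 7.08, 7.55, 6.94, 7.41 and 6.91 on the 5 Sham mesenteric arrays. Since no thoracic array detected it, abdominal aorta was at least 5.73-fold higher (adjusted p = 1.99e-11). A second Hoxd9 probe gave at least 5.7-fold (adjusted p = 7.64e-11). Hoxd4, a gene of cervical vertebrae, showed 7.81, 8.02 and 7.60 on the 3 Sham abdominal arrays, 5.44, 5.40 and 5.51 on the 3 Sham thoracic arrays and 7.67, 8.04, 7.79, 8.06 and 7.67 on the 5 Sham mesenteric arrays. It was detected on all arrays, and thoracic values were the lowest by a difference of 2.36 ± 0.14 (SE, adjusted p = 2.44e-11) from abdominal values.

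Hoxd10 and Hoxd3 were closer to background. Hoxd10, known from lumbar motor neurons and the hindlimb, had 5.44, 5.54 and 5.30 on the 3 Sham abdominal arrays, 4.47, 4.34 and 4.28 on the 3 Sham thoracic arrays and 5.54, 5.72, 5.52, 6.19 and 5.43 on the 5 Sham mesenteric arrays. The bound on its abdominal to thoracic ratio was 1.34-fold (adjusted p = 0.000967). For Hoxd3, a partner of Hoxa3 in the first neck vertebrae, values were 5.01, 5.21 and 4.97 on the 3 Sham abdominal arrays, 4.37, 4.33 and 4.33 on the 3 Sham thoracic arrays and 5.22, 5.15, 5.50, 5.05 and 5.20 on the 5 Sham mesenteric arrays. Thoracic arrays did not detect it, 2 of 3 abdominal arrays did, and the bound was 1.04-fold (adjusted p = 0.00127).

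Hoxa9, which also acts in blood progenitors, was the Hoxa member with the widest range: 7.76, 8.03 and 8.08 on the 3 Sham abdominal arrays, 5.24, 5.30 and 5.31 on the 3 Sham thoracic arrays and 5.34, 5.40, 5.16, 5.34 and 4.67 on the 5 Sham mesenteric arrays. Abdominal aorta stood apart, with a difference of 2.67 ± 0.18 (SE, adjusted p = 3.97e-10) from thoracic aorta, while thoracic and mesenteric arrays overlapped. A further Hoxa9 probe gave 2.41 ± 0.19 for the abdominal minus thoracic difference (adjusted p = 2.92e-09). Hoxa3, needed for the thymus, parathyroid and carotid body in mice, had 6.81, 6.76 and 6.76 on the 3 Sham abdominal arrays, 5.81, 6.08 and 6.25 on the 3 Sham thoracic arrays and 5.53, 5.61, 5.48, 5.53 and 5.39 on the 5 Sham mesenteric arrays with its brightest probe. That probe was higher in abdominal than in thoracic aorta by 0.73 ± 0.13 (SE, adjusted p = 0.000359). It is annotated to a cDNA clone, and 2 tested probes annotated to the RefSeq Hoxa3 mRNA, detected on 4 and 3 of the 23 arrays, ran the other way, at -0.26 ± 0.16 (adjusted p = 0.347) and -0.61 ± 0.13 (adjusted p = 0.00263). The direction for Hoxa3 is thus not settled.

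**Figure D2:**
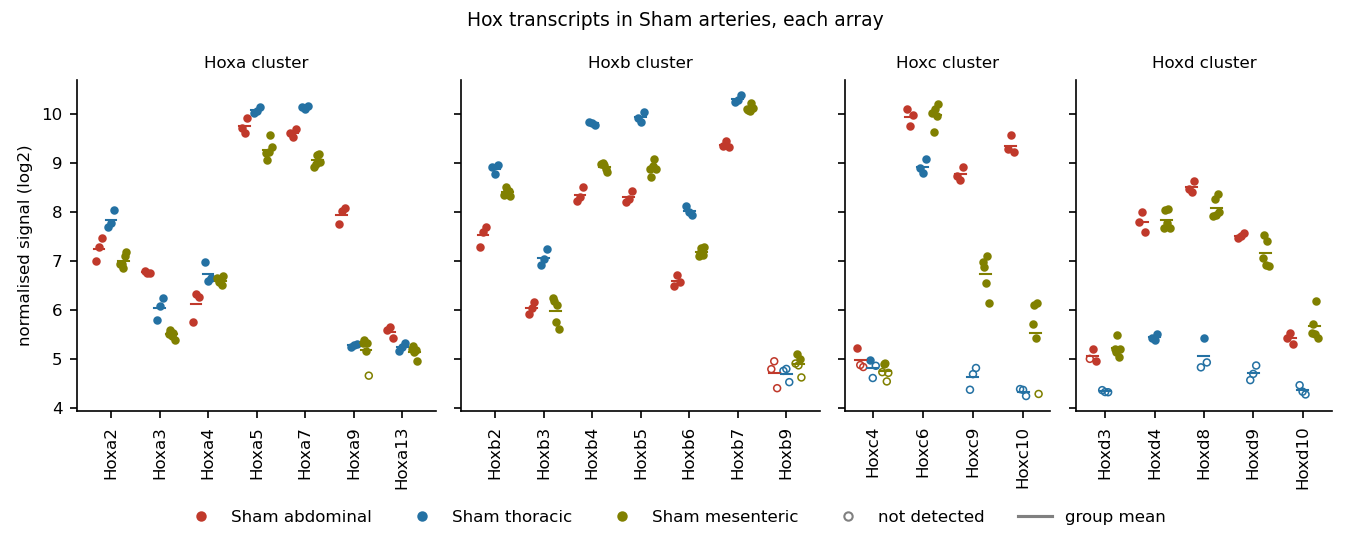
Normalised log2 signal of the 23 tested Hox genes on each Sham array, by cluster, for abdominal aorta (3 arrays, red), thoracic aorta (3, blue) and mesenteric arteries (5, olive). Filled points were detected, open points were not, and lines are group means. Thoracic points are the lowest for Hoxc6, Hoxc9, Hoxd4, Hoxd8, Hoxd9 and Hoxd10 and the highest for Hoxb2, Hoxb4, Hoxb5 and Hoxb6.

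The Hoxb genes Hoxb2 to Hoxb7 were all lower in abdominal as compared to thoracic aorta. Hoxb5, which takes part in enteric neuron development, had 8.22, 8.28 and 8.43 on the 3 Sham abdominal arrays, 9.93, 9.86 and 10.04 on the 3 Sham thoracic arrays and 8.89, 8.73, 8.96, 9.08 and 8.88 on the 5 Sham mesenteric arrays. The vessels were ordered thoracic, mesenteric, abdominal without overlap, and the abdominal minus thoracic difference was -1.63 ± 0.12 (SE, adjusted p = 1.22e-09). Hoxb4, best known from blood stem cells, gave 8.24, 8.31 and 8.53 on the 3 Sham abdominal arrays, 9.84, 9.84 and 9.78 on the 3 Sham thoracic arrays and 8.98, 9.01, 8.98, 8.90 and 8.82 on the 5 Sham mesenteric arrays. It had the same order and a difference of -1.46 ± 0.10 (SE, adjusted p = 6.11e-10). Hoxb6, a neighbour of Hoxb5, had 6.50, 6.72 and 6.59 on the 3 Sham abdominal arrays, 8.13, 8.01 and 7.94 on the 3 Sham thoracic arrays and 7.11, 7.17, 7.26, 7.12 and 7.29 on the 5 Sham mesenteric arrays. Again thoracic arrays were highest and abdominal arrays lowest, with a difference of -1.43 ± 0.13 (SE, adjusted p = 4.47e-08).

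Hoxb2, a hindbrain gene in the embryo, had 7.30, 7.60 and 7.70 on the 3 Sham abdominal arrays, 8.92, 8.78 and 8.98 on the 3 Sham thoracic arrays and 8.35, 8.53, 8.46, 8.45 and 8.34 on the 5 Sham mesenteric arrays. Its abdominal minus thoracic difference of -1.36 ± 0.15 (SE, adjusted p = 5.12e-07) also left no overlap between any of the vessels. Hoxb7 had 9.35, 9.46 and 9.33 on the 3 Sham abdominal arrays, 10.25, 10.29 and 10.40 on the 3 Sham thoracic arrays and 10.12, 10.09, 10.07, 10.24 and 10.13 on the 5 Sham mesenteric arrays. Abdominal arrays were below the rest, with a difference of -0.93 ± 0.10 (SE, adjusted p = 2.58e-07) from thoracic aorta, and a second Hoxb7 probe gave -1.08 ± 0.11 (adjusted p = 2.33e-07). Hoxb3 had 5.93, 6.06 and 6.17 on the 3 Sham abdominal arrays, 6.93, 7.05 and 7.24 on the 3 Sham thoracic arrays and 6.24, 6.20, 5.77, 6.11 and 5.62 on the 5 Sham mesenteric arrays. Thoracic aorta was the highest, and abdominal and mesenteric arrays overlapped, with an abdominal minus thoracic difference of -1.02 ± 0.15 (SE, adjusted p = 3.65e-05).

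The remaining Hoxa genes were spread over a narrower range. Hoxa7 had 9.62, 9.54 and 9.71 on the 3 Sham abdominal arrays, 10.15, 10.11 and 10.17 on the 3 Sham thoracic arrays and 8.93, 8.98, 9.17, 9.20 and 9.02 on the 5 Sham mesenteric arrays. Thoracic arrays were above abdominal arrays and these above mesenteric arrays, with an abdominal minus thoracic difference of -0.52 ± 0.10 (SE, adjusted p = 0.000731). Hoxa2, which sets the identity of the second pharyngeal arch, gave 7.01, 7.30 and 7.47 on the 3 Sham abdominal arrays, 7.69, 7.78 and 8.06 on the 3 Sham thoracic arrays and 6.94, 6.94, 6.87, 7.11 and 7.20 on the 5 Sham mesenteric arrays. It was lower in abdominal as compared to thoracic aorta, with a difference of -0.58 ± 0.14 (SE, adjusted p = 0.00677), and the call was lost without Sham abdominal array 1 (adjusted p = 0.0507), the array rich in skeletal muscle transcripts, or without Sham thoracic array 3 (adjusted p = 0.0514). Hoxa4 had 5.76, 6.34 and 6.27 on the 3 Sham abdominal arrays, 6.99, 6.59 and 6.66 on the 3 Sham thoracic arrays and 6.65, 6.57, 6.60, 6.51 and 6.70 on the 5 Sham mesenteric arrays. Here mesenteric arrays overlapped thoracic arrays and abdominal arrays were below both, with a difference of -0.62 ± 0.13 (SE, adjusted p = 0.00243) from thoracic aorta that was not called in the authors' log2 values (adjusted p = 0.165). Hoxa5, required for trachea and lung development, was at 9.72, 9.63 and 9.92 on the 3 Sham abdominal arrays, 10.03, 10.06 and 10.16 on the 3 Sham thoracic arrays and 9.21, 9.06, 9.23, 9.58 and 9.33 on the 5 Sham mesenteric arrays. Its abdominal minus thoracic difference of -0.33 ± 0.15 did not pass (adjusted p = 0.17).

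Over the 23 genes, the abdominal minus thoracic difference and the paralogue number had a Pearson correlation of 0.52 and a Spearman correlation of 0.53, given as a description across genes that share arrays and chromosomes. Members called higher in abdominal aorta had paralogue numbers from 3 to 10, and 6 of these 10 were numbered 8 or above. All 9 members called lower were numbered 2 to 7. Paralogues of the same number did not always go together: Hoxd4 was higher and Hoxa4 and Hoxb4 were lower in abdominal aorta, and Hoxc6 was higher while Hoxb6 was lower. Among the paralogues numbered 9, Hoxa9, Hoxc9 and Hoxd9 were higher, and Hoxb9 was at 0.02 ± 0.16 (adjusted p = 0.953).

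Markers of other cells moved with the aortic segments. The summed log2 signal of 6 brown adipocyte markers was 8.96 to 9.72 on Sham abdominal arrays and 11.67 to 12.89 on Sham thoracic arrays, with Elovl3 and Zic1 undetected in both. On AngII abdominal arrays it was 12.38, 11.40 and 8.55, and Hoxc10 was at 8.67, 9.31 and 8.96 and Hoxc9 at 8.88, 8.77 and 8.83 on the same arrays. The part of these markers in the Hox differences was not tested. Skeletal muscle markers summed to 12.38 on Sham abdominal array 1 and to at most 7.45 on the other 2, with 0 of 7 markers detected on Sham thoracic arrays. Without that array 10 members were higher and 8 lower in abdominal aorta. Markers of lymphocytes summed to 10.62 to 11.23 on Sham abdominal and to 8.75 to 8.85 on Sham thoracic arrays (5 markers, with Cd3g, Ms4a1 and Cr2 undetected in both). Those of fibroblasts summed to 14.75 to 14.87 and 14.50 to 14.57 in the same order, and those of macrophages to 11.31 to 11.52 and 10.93 to 11.24. Endothelial markers, with Kdr undetected in both, summed to 12.63 to 13.16 and 12.27 to 12.45, and Schwann cell markers to 11.23 to 11.50 and 11.12 to 11.18. Smooth muscle sums overlapped. The part of these markers in the Hox differences was not tested.

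Thoracic aorta and mesenteric arteries differed in the same clusters. In Sham thoracic as compared to Sham mesenteric arteries, 5 of 5 Hoxd and 3 of 4 Hoxc genes were lower, and 4 of 7 Hoxa and 5 of 7 Hoxb genes were higher. Of 23 genes tested, 9 were higher and 8 lower in thoracic aorta, against 29.2% of all transcripts called higher and 22.5% called lower, 51.8% in all, a background that is itself high. This split depended on the scaling, with 6 higher and 15 lower in the authors' log2 values and 13 higher and 6 lower with each of those arrays centred on its median. All 5 Hoxd genes were lower, with differences of -3.03 ± 0.13 (SE) for Hoxd8 (adjusted p = 1.36e-14), -2.40 ± 0.12 for Hoxd4 (adjusted p = 1.49e-13) and at least 4.5-fold for Hoxd9 (adjusted p = 1.38e-12), which the thoracic arrays did not detect. Hoxd10 and Hoxd3, undetected in thoracic aorta, had bounds of 1.59-fold (adjusted p = 2.56e-06) and 1.16-fold (adjusted p = 4.57e-06). Among Hoxc genes, Hoxc6 was lower, with -1.06 ± 0.14 (SE, adjusted p = 1.39e-06), and Hoxc9 at least 3.32-fold lower (adjusted p = 6.3e-07). The mesenteric values of Hoxc10 ran over a wide range, with 1 of 5 arrays undetected and overlapping the thoracic arrays, so its bound was 1.45-fold (adjusted p = 0.00872). With each array of the authors' log2 values centred on its median, Hoxd3 and Hoxc10 were not called in limma. Their differences were then -0.052 (adjusted p = 0.294) and -0.18 (adjusted p = 0.279).

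The members that stood above mesenteric levels in thoracic aorta were Hoxa2, Hoxa3, Hoxa5, Hoxa7 and Hoxb2 to Hoxb6. The summed signal of endothelial markers was 12.27 to 12.45 on Sham thoracic and 13.81 to 14.04 on Sham mesenteric arrays, and that of lymphocyte markers was 8.75 to 8.85 on thoracic and 12.61 to 13.07 on mesenteric arrays. White adipocyte markers summed to 10.14 to 10.79 on Sham thoracic and 13.18 to 13.87 on Sham mesenteric arrays, with Retn and Fabp4 undetected on thoracic arrays. Brown adipocyte markers summed to 11.67 to 12.89 on Sham thoracic and 9.71 to 10.72 on Sham mesenteric arrays, with Ucp1, Elovl3 and Zic1 undetected on mesenteric arrays. The part of these markers in the Hox differences was not tested. Differences reached 1.09 ± 0.13 (SE) for Hoxb3 (adjusted p = 3.5e-07), 1.08 ± 0.09 for Hoxa7 (adjusted p = 5.37e-10) and 1.04 ± 0.11 for Hoxb5 (adjusted p = 2.51e-08). A dimmer Hoxb3 probe had a difference of 0.19 ± 0.11 that did not pass (adjusted p = 0.149). Hoxb2 and Hoxa3, at 0.47 ± 0.13 (adjusted p = 0.00456) and 0.54 ± 0.12 (adjusted p = 0.000433), changed direction in the authors' log2 values, to -0.029 and -0.11, where the median of all transcripts is shifted to -0.28 as compared to 0.07 here. Hoxa4, Hoxa9, Hoxa13, Hoxb7, Hoxb9 and Hoxc4 did not pass, with adjusted p between 0.0796 and 0.692.

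Abdominal aorta and mesenteric arteries were closer to each other in the Hoxd cluster than either was to thoracic aorta. Hoxd4, Hoxd3 and Hoxd10 differed by -0.04 ± 0.12, -0.16 ± 0.13 and -0.25 ± 0.19 (abdominal minus mesenteric, SE) and did not pass (adjusted p = 0.814, 0.338 and 0.283). In total 9 members were higher and 6 lower in abdominal aorta, against 24.9% of all transcripts called higher and 21% called lower, 45.9% in all, and the authors' log2 values gave 5 higher and 10 lower. Hoxc10 led with a difference of 3.83 ± 0.37 (SE, adjusted p = 1.23e-08), followed by Hoxa9 with 2.77 ± 0.16 (SE, adjusted p = 4.3e-12) and Hoxc9 with 2.04 ± 0.27 (SE, adjusted p = 1.54e-06). These 3 genes separated abdominal aorta from both other vessels without overlap. The Hoxb genes Hoxb2, Hoxb4, Hoxb5, Hoxb6 and Hoxb7 were lower in abdominal aorta, with differences from -0.89 to -0.58. White adipocyte markers summed to 10.21 to 10.78 on Sham abdominal and 13.18 to 13.87 on Sham mesenteric arrays and lymphocyte markers to 10.62 to 11.23 and 12.61 to 13.07 in the same order, and their part in these Hox differences was not tested. Hoxa3 was higher by 1.27 ± 0.12 (SE, adjusted p = 5.57e-09) with its brightest probe, and the 2 RefSeq probes gave 0.19 each and did not pass.

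Small differences in this comparison depended on scaling. Hoxa5, Hoxa7, Hoxd8 and Hoxd9 were higher in abdominal aorta by 0.47 ± 0.14, 0.56 ± 0.09, 0.41 ± 0.13 and 0.35 ± 0.14 (SE), and in the authors' log2 values they were at -0.17, -0.077, -0.16 and -0.17, where the median of all transcripts is -0.20 as compared to 0.05 here. The Hoxd9 call (adjusted p = 0.0489) was lost without each of 6 of the 8 arrays, at adjusted p up to 0.134, and those of Hoxd8 (0.0793) and Hoxa5 (0.0516) without Sham abdominal array 3. Hoxa13 had 5.60, 5.66 and 5.44 on the 3 Sham abdominal arrays, 5.18, 5.25 and 5.33 on the 3 Sham thoracic arrays and 5.21, 5.27, 5.15, 5.19 and 4.97 on the 5 Sham mesenteric arrays. It was close to background and higher in abdominal as compared to mesenteric arteries without overlap, with 0.41 ± 0.12 (adjusted p = 0.00622), while Hoxa4 was lower, with -0.48 ± 0.12 (adjusted p = 0.00206). The Hoxa13 call was lost in the authors' log2 values, at 0.066 (limma, adjusted p = 0.12). Dimmer or second probes of Hoxa2 and Hoxb3 passed where the brightest did not, at 0.27 ± 0.11 (adjusted p = 0.0485) and -0.28 ± 0.11 (adjusted p = 0.0434). Pancreas transcripts were high on 1 of 5 Sham mesenteric arrays, and leaving out the mesenteric arrays rich in them, 2 of which were AngII, changed only the Hoxd9 call among the calls between vessels (adjusted p = 0.0672).

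The AngII arrays came from other mice, and vessels could be compared there a second time. Between AngII abdominal and AngII thoracic aorta 9 members were higher and 10 lower, against 12.5% of all transcripts, and 18 of the 19 members called on Sham arrays were called in the same direction. None was called in the opposite direction. Hoxd10 was called on Sham arrays only, with at least 1.06-fold (adjusted p = 0.0549) on AngII arrays, and Hoxa5 on AngII arrays only, with -0.55 ± 0.15 (SE, adjusted p = 0.0194). Thoracic and mesenteric AngII arrays differed in 15 members (background 40.6%), all of them called in the same direction on Sham arrays, and Hoxb2 and Hoxc10 were not called. Abdominal and mesenteric AngII arrays differed in 14 members (background 37.1%), again all called in the same direction on Sham arrays, without Hoxa5. Hoxc10 was at least 15.9-fold higher in AngII abdominal as compared to AngII thoracic aorta (adjusted p = 2.98e-08), with thoracic aorta undetected on 3 of 3 arrays. Further probes again differed from the brightest. The Hoxa3 probes of the RefSeq mRNA gave -0.13 ± 0.16 (adjusted p = 0.669) and -0.48 ± 0.13 (adjusted p = 0.0173) between AngII abdominal and AngII thoracic aorta, against 0.58 ± 0.13 (SE, adjusted p = 0.00396) for the clone probe. Against AngII mesenteric arteries, the first of them did not pass in thoracic aorta (adjusted p = 0.266) and neither passed in abdominal aorta (adjusted p = 0.726 and 0.827), where the clone probe was called in both. A second Hoxb7 probe was higher in AngII thoracic aorta than in AngII mesenteric arteries, with 0.34 ± 0.10 (adjusted p = 0.00592), and a second Hoxb3 probe was lower in AngII abdominal aorta than in AngII mesenteric arteries, with -0.33 ± 0.12 (adjusted p = 0.0378), where the brightest probes did not pass.

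**Figure D3:**
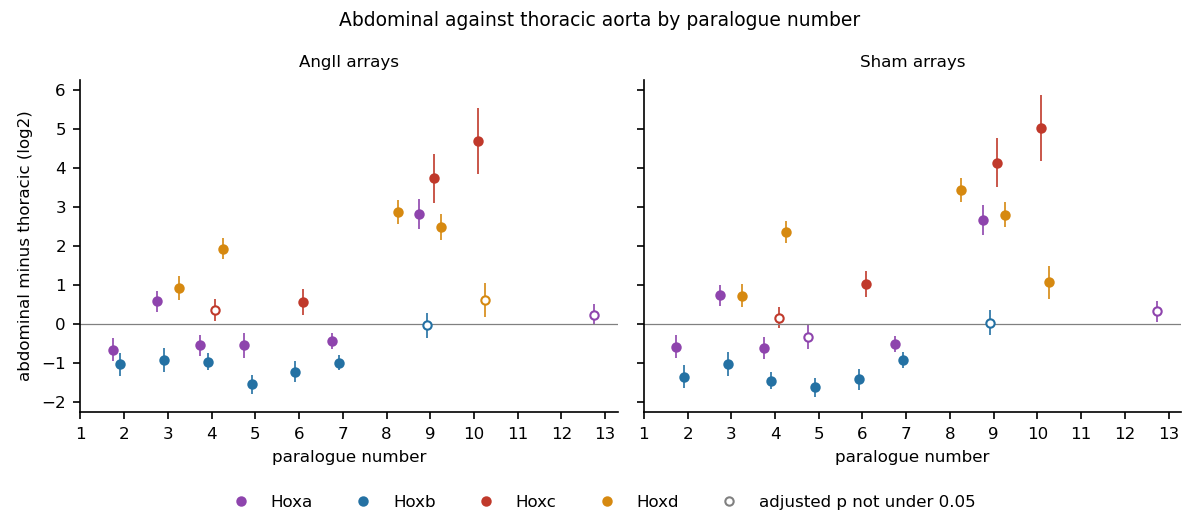
Abdominal minus thoracic difference (log2) of the 23 tested Hox genes against paralogue number, on AngII arrays (left, 3 and 3) and Sham arrays (right, 3 and 3), coloured by cluster. Points are limma estimates (Hoxb9, Hoxc9, Hoxc10, Hoxd3, Hoxd9 and Hoxd10 against thoracic Sham arrays that did not detect them), bars are 95% intervals and open points did not reach an adjusted p under 0.05. Hoxb points lie at or below 0 up to Hoxb7, and Hoxa9, Hoxc9, Hoxc10, Hoxd8 and Hoxd9 lie above 2 on both sides.

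Fewer Hox members were called between AngII and Sham arrays than between vessels. In thoracic aorta 3 of 23 members were lower and 0 higher with AngII, against 17.3% of all transcripts called in either direction, 8.63% higher and 8.62% lower. The 3 are adjacent genes of the Hoxb cluster, Hoxb4, Hoxb5 and Hoxb6, and whether their position plays a part was not tested. At an unadjusted p under 0.05 there were 7 members, against 32.2% of all transcripts. Groups did not overlap for 1 member higher and 5 lower, against 36.9% of all transcripts in either direction. By each of these counts in either direction, the share of Hox members was below that of all transcripts. The share called lower, taken alone, was above the 8.62% of all transcripts. Neither difference in shares was tested.

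Hoxb6 had 7.66, 7.55 and 7.43 on AngII thoracic arrays, against 8.13, 8.01 and 7.94 on Sham thoracic arrays. Every AngII array was below every Sham array, with a difference of -0.48 ± 0.10 (SE, adjusted p = 0.0123), which is -28.3% on the linear scale, and the call held without any 1 array (adjusted p up to 0.0445). Hoxb5 had 9.62, 9.52 and 9.45 with AngII, against 9.93, 9.86 and 10.04 with Sham. The difference of -0.41 ± 0.09 (SE, adjusted p = 0.0185) was not called without AngII thoracic array 3 (0.0628), Sham thoracic array 1 (0.0508) or Sham thoracic array 3 (0.0603). Hoxb4 had 9.49, 9.46 and 9.57 with AngII, against 9.84, 9.84 and 9.78 with Sham. Its groups did not overlap, and the difference of -0.31 ± 0.09 (SE, adjusted p = 0.0366) was not called after any of the 6 arrays was left out (adjusted p from 0.0598 to 0.111).

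Near the threshold in thoracic aorta, Hoxb2 was at -0.31 ± 0.09 (adjusted p = 0.0505), with 8.62, 8.53 and 8.60 on AngII and 8.92, 8.78 and 8.98 on Sham arrays. Hoxa4 was at -0.40 ± 0.13 (adjusted p = 0.0591), with 6.25, 6.51 and 6.27 on AngII and 6.99, 6.59 and 6.66 on Sham arrays. For both genes the 2 groups did not overlap. Hoxc6 was at 0.38 ± 0.13 (adjusted p = 0.066), with 9.55, 9.22 and 9.17 on AngII and 8.90, 8.81 and 9.08 on Sham arrays, again without overlap. Hoxc9 was detected on AngII thoracic array 1 alone, at 5.52, and Hoxc10 on no thoracic array of either group. Hoxb7 and Hoxb3, which flank these 3 genes, were at 0.01 ± 0.09 and 0.11 ± 0.10.

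**Figure D4:**
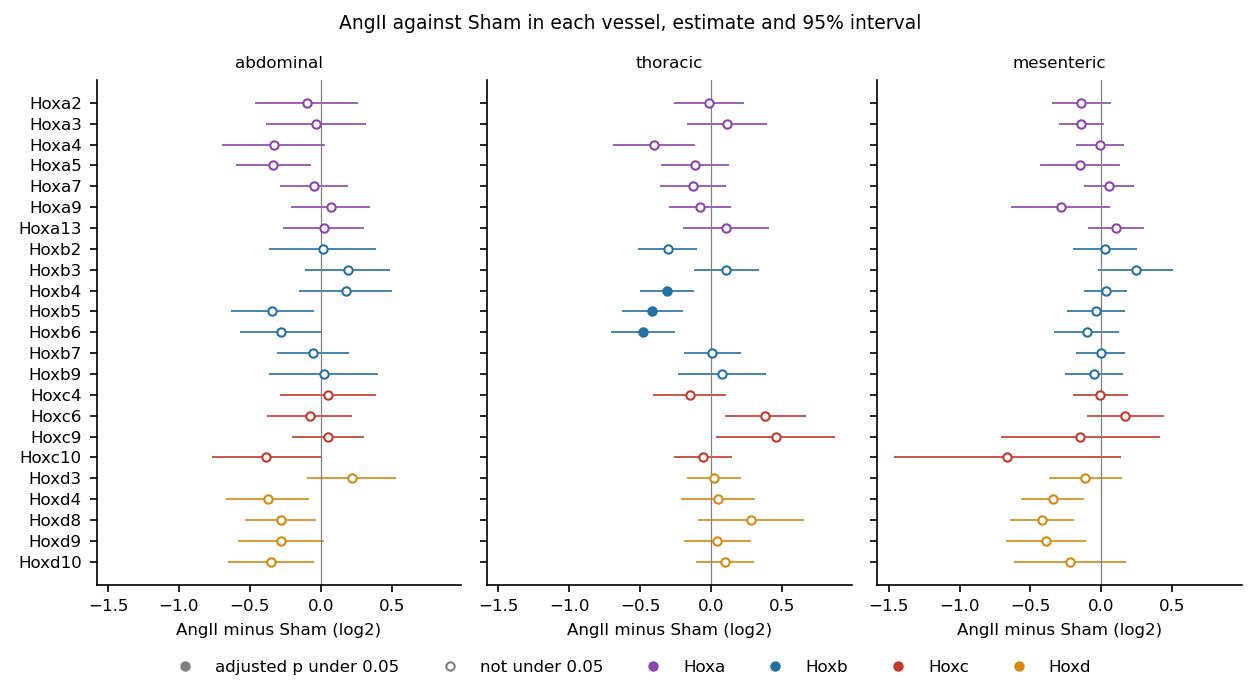
AngII minus Sham difference (log2) of the 23 tested Hox genes in abdominal aorta (3 and 3 arrays), thoracic aorta (3 and 3) and mesenteric arteries (6 and 5), coloured by cluster. Points are limma estimates with 95% intervals, and filled points reached an adjusted p under 0.05. The filled points are Hoxb4, Hoxb5 and Hoxb6 in thoracic aorta, at -0.31, -0.41 and -0.48.

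Markers of several cell types moved with AngII in thoracic aorta. Summed log2 signals were 15.02 to 15.19 on AngII and 14.50 to 14.57 on Sham arrays for 8 of 8 fibroblast markers detected, and 15.70 to 15.76 on AngII and 15.91 to 15.97 on Sham arrays for 8 of 8 smooth muscle markers. Those of 6 brown adipocyte markers were 12.81 to 13.19 on AngII and 11.67 to 12.89 on Sham arrays, with Zic1 at background in both and overlapping ranges. Sums were also higher without overlap for 5 macrophage markers, with 11.32 to 12.08 on AngII and 10.93 to 11.24 on Sham arrays, for 6 white adipocyte markers, with 11.45 to 11.83 and 10.14 to 10.79 in the same order, and for 5 lymphocyte markers, with 9.34 to 9.78 and 8.75 to 8.85. Retn was undetected in both groups among the white adipocyte markers, and Cd3g, Ms4a1 and Cr2 among the lymphocyte markers. The part of these shifts in the lower Hoxb values was not tested.

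In abdominal aorta no Hox member passed with AngII by limma, against 1.09% of all transcripts, and 5 members had an unadjusted p under 0.05, all with lower values, against 15.2% of all transcripts. Groups did not overlap for 5 members, against 21.1% of all transcripts. Hoxd4 was at 7.52, 7.41 and 7.38 on AngII and 7.81, 8.02 and 7.60 on Sham arrays, a difference of -0.38 ± 0.13 (adjusted p = 0.22). Hoxb5 was at 7.90, 7.82 and 8.19 on AngII and 8.22, 8.28 and 8.43 on Sham arrays, a difference of -0.34 ± 0.13 (adjusted p = 0.254). The others were Hoxa5, Hoxd8 and Hoxd10. Hoxc10 on AngII abdominal arrays gave 8.67, 9.31 and 8.96, which overlapped the Sham arrays, with a difference of -0.38 ± 0.17 (adjusted p = 0.329). Summed markers also moved without overlap in this vessel. Fibroblast markers were at 15.16 to 15.22 on AngII and 14.75 to 14.87 on Sham arrays. Macrophage markers were at 11.93 to 12.41 and 11.31 to 11.52 in the same order, and smooth muscle markers at 15.75 to 15.90 and 15.94 to 15.96. Sums of white adipocyte, brown adipocyte and lymphocyte markers overlapped. The part of these shifts in the Hox values was not tested.

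In mesenteric arteries no member passed either, against 0.34% of all transcripts, and 3 members had an unadjusted p under 0.05, against 15.7% of all transcripts. Hoxd8 was at 7.46 at the lowest, 7.74 at the median and 7.83 at the highest on 6 AngII arrays and 7.92, 8.26, 7.94, 8.37 and 8.01 on 5 Sham arrays. It was the 1 member whose groups did not overlap, against 2.52% of all transcripts, with AngII arrays below Sham arrays. The difference of -0.42 ± 0.10 was not called (adjusted p = 0.0831). Hoxd4 and Hoxd9 were at -0.34 ± 0.10 (adjusted p = 0.137) and -0.39 ± 0.13 (adjusted p = 0.175), with overlapping groups. Hoxc10 was detected on 2 of 6 AngII and 4 of 5 Sham mesenteric arrays, with a difference of -0.66 ± 0.37 whose interval ran from -1.46 to 0.14.

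Over all vessels, with the vessel as a covariate, 3 members were lower with AngII and 0 higher, against 5.27% of all transcripts called lower and 10.7% in either direction. The difference was -0.25 ± 0.07 (SE, adjusted p = 0.0299) for Hoxb6, -0.25 ± 0.08 (SE, adjusted p = 0.0376) for Hoxd4 and -0.22 ± 0.07 (SE, adjusted p = 0.0462) for Hoxb5. Their calls were lost without each of 6, 11 and 16 of the 23 arrays in the order given. With the arrays' column numbers as a random block, Hoxb5 and Hoxd4 were not called (adjusted p = 0.0666 and 0.0507).

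The difference in AngII effect between vessels passed for 1 member. Hoxd8 had an effect in thoracic aorta that exceeded that in mesenteric arteries by 0.70 ± 0.19 (SE, adjusted p = 0.0171), against 11.4% of all transcripts called in this contrast. In thoracic aorta its values were 5.45, 5.49 and 5.11 with AngII, detected on 3 of 3 arrays, and 4.84, 5.43 and 4.94 with Sham, detected on 1 of 3 arrays. The call thus set values near background against the lower AngII values of mesenteric arteries, and it was lost without AngII thoracic array 2 (adjusted p = 0.0513), Sham thoracic array 1 (0.0675) or Sham thoracic array 3 (0.0532). Hoxb4, Hoxb5 and Hoxb6 were called lower with AngII in thoracic aorta. Their AngII effects there differed from those in mesenteric arteries by -0.34 ± 0.13, -0.38 ± 0.15 and -0.38 ± 0.16, which did not pass (adjusted p = 0.091, 0.108 and 0.144). Between the abdominal and thoracic aorta no member passed (background 0.452%), 3 had an unadjusted p under 0.05 (background 9.74%), and Hoxb4 was at 0.49 ± 0.15 (adjusted p = 0.176). Between the abdominal aorta and mesenteric arteries 0 members passed, and 0 had an unadjusted p under 0.05 (backgrounds 1.85% and 15.2%).

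**Figure D5:**
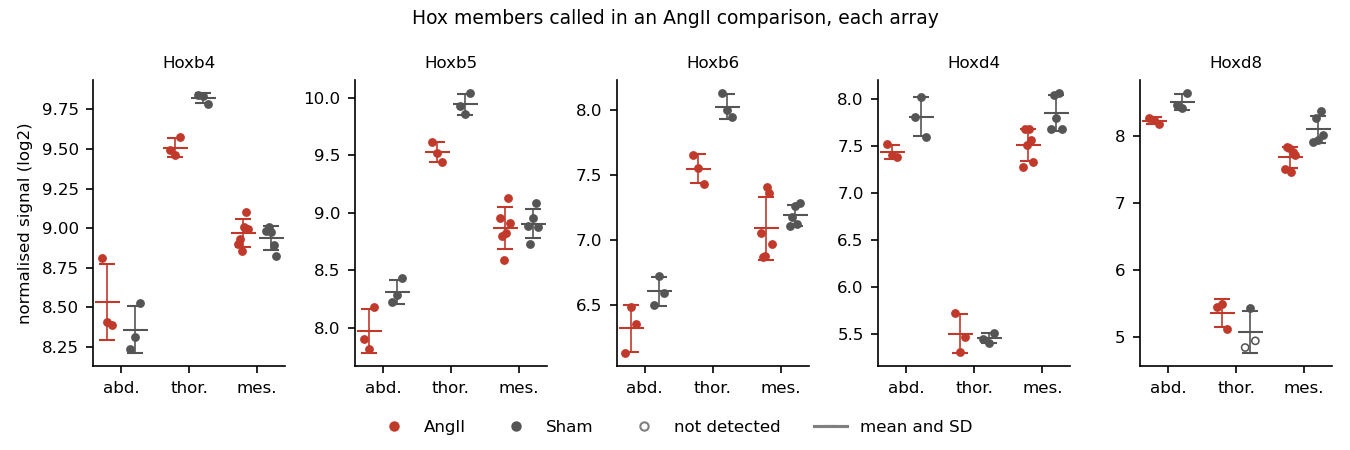
Normalised log2 signal of Hoxb4, Hoxb5, Hoxb6, Hoxd4 and Hoxd8 on each AngII (red) and Sham (grey) array of abdominal aorta (3 and 3), thoracic aorta (3 and 3) and mesenteric arteries (6 and 5), with group means and SD. Open points were not detected, and the vertical axes differ between genes. In thoracic aorta the AngII points of the 3 Hoxb genes lie below their Sham points.

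Genes whose proteins bind DNA with Hox factors or set the state of Hox clusters were counted in the same way, against 13.8% of all transcripts called between Sham abdominal and Sham thoracic aorta, 45.9% between Sham abdominal aorta and Sham mesenteric arteries and 17.3% with AngII in thoracic aorta. Of 7 tested TALE genes, 2 were higher and 0 lower in Sham abdominal as compared to Sham thoracic aorta: Meis1, a Hox cofactor, by 1.03 (adjusted p = 2.16e-06), and Pbx2, a cofactor of the Pbx class, by 0.35 (adjusted p = 0.0435). Against Sham mesenteric arteries abdominal aorta was higher in 4 and lower in 0, led by Pknox2 with 1.05 (adjusted p = 1.02e-07) and Meis1 with 0.61 (adjusted p = 8.09e-05). With AngII in thoracic aorta 0 TALE genes rose and 1 fell, Meis1, with a difference of -0.37 (adjusted p = 0.0201). Over all vessels 0 rose and 3 fell, namely Meis1, Meis2 and Pknox2, against 5.27% of all transcripts called lower and 10.7% in either direction. Of 22 tested chromatin regulators, 0 were higher and 2 lower in abdominal as compared to thoracic aorta, Kdm6b, a demethylase of the Polycomb mark, with a difference of -0.58 (adjusted p = 0.00363), and Bmi1, a Polycomb subunit, with -0.51 (adjusted p = 0.0311). In thoracic aorta 3 of them rose and 5 fell with AngII: Cbx7, a reader of the Polycomb mark, differed by -0.62 (adjusted p = 0.00618), Phc1, another Polycomb subunit, by -0.42 (adjusted p = 0.011) and Cbx8, a reader like Cbx7, by 0.42 (adjusted p = 0.0167). In abdominal aorta and in mesenteric arteries no gene of these lists was called with AngII.

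Retinoic acid is a known inducer of anterior Hox genes in the embryo. The same backgrounds apply to its genes. Of 12 tested genes of retinoic acid metabolism, its receptors and Cdx factors, 2 were higher and 1 lower in Sham abdominal as compared to Sham thoracic aorta: the synthesis enzymes Aldh1a3, with a difference of 1.69 (adjusted p = 2.76e-07), and Aldh1a1, with 0.89 (adjusted p = 0.000287), were higher, and the receptor Rarb, with -0.69 (adjusted p = 0.0445), was lower. In thoracic aorta with AngII 2 rose, Rxrg by 0.63 (adjusted p = 0.0412) and Aldh1a3 by 0.69 (adjusted p = 0.0415), and 1 fell, the retinal reductase Dhrs3 with a difference of -0.68 (adjusted p = 0.00841). None was called with AngII in abdominal aorta, in mesenteric arteries or over all vessels. Cdx1 and Cdx2, direct activators of Hox genes in the embryo, were detected on no aortic array.

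Genes next to the Hox clusters were called between the aortic segments about as often as all transcripts (13.8%). Of 15 tested neighbours, 0 were higher and 2 lower in abdominal as compared to thoracic aorta, Snx10 and Skap2 beside the Hoxa cluster, with differences of -0.58 (adjusted p = 0.0286) and -0.28 (adjusted p = 0.0432). No neighbour of the Hoxd cluster was called. Only part of the 15 tested neighbours lie beside Hoxd, so at a share of 13.8% this is not a result about that cluster. Of 22 other tested regional transcription factors, 6 were higher and 4 lower in abdominal as compared to thoracic aorta. Tcf21, of visceral and adventitial mesenchyme, was at 2.64 (adjusted p = 9.18e-12), Meox2, a homeobox gene of somites and vessels, at 1.65 (adjusted p = 2.26e-10) and Foxf1, of gut and lung mesenchyme, at -1.15 (adjusted p = 5.44e-08). In thoracic aorta with AngII 5 rose and 5 fell (background 17.3%), led by Foxf1 with -0.88 (adjusted p = 0.000632), Meox1 with 0.80 (adjusted p = 0.00144) and Foxc1 with -0.60 (adjusted p = 0.00327).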

How the data were processed

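RNA of 3 vessels was measured on 23 BeadChip arrays, each a pool of 2 mice. The authors deposited intensity values, already background-subtracted but not normalised, and the detection p-value that goes with every intensity. They further deposited log2 values from robust spline normalization (lumi, R 3.0.2), whose medians differ between vessels, and tested these with limma. Columns of the intensity table were assigned to vessel and treatment from the letters of their names, read as initials of Polish vessel names, and the log2 values, whose arrays carry full titles, were used as an alternative.

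Intensities of all arrays were processed with neqc (limma 3.58.1, R 4.3.3, statmod 1.5.0) at an offset of 16, and the negative controls it needs were estimated from the detection p-values. The filter kept 20585 of 45281 transcripts, those detected (p under 0.01) on 3 or more arrays. Moderated tests were two-sided, p-values were adjusted over all transcripts kept by the Benjamini-Hochberg method, and the threshold was 0.05. Sham vessels, AngII vessels and interactions were compared in a fit of 6 group means, AngII against Sham in a fit per vessel, and over all vessels with the vessel as covariate. The probe of highest mean signal stood for a gene, and further probes were given where their call differed between vessels. For a group in which a gene was undetected, the fold is a bound that sets dim signals to the lowest detected signal of their array. The p-value beside it is that of the limma difference, which does not use the bound. Probe symbols were single for 34885 probes, several for 18 and none for 10378. Arrays have no sequencing depth, and their number limits precision. Steps were tested on simulated data. Deviations from the group means were correlated between same-numbered abdominal and thoracic arrays of a treatment. Correlations were above 0.1 in 6 of 6 pairs by title and 4 of 4 by column number. Differently numbered pairs were not examined, so whether the numbers pair the aortic segments was not settled. Alternatives covered the authors' log2 values, background correction, normalization, filters, prior variance, probes, blocks and arrays left out.

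The Hox members, the context lists and the markers were chosen with earlier results of these data known. All Hox members were accounted for, with values per array for those that passed in a comparison between Sham vessels or with AngII. From each context list the genes with the 3 smallest adjusted p were named for the main comparisons, or fewer where fewer passed. Figures were made with matplotlib 3.10.9 (Python 3.11.15).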

Additional observations from a re-analysis of the deposited data

Results flagged for a closer look

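The AngII effect on Hoxd8 differed between vessels in a test of the difference itself: thoracic minus mesenteric, it was 0.70 on the log2 scale in limma (adjusted p = 0.0171). The effect was 0.28 in thoracic aorta (adjusted p = 0.281) and -0.42 in mesenteric arteries (adjusted p = 0.0831), neither of which passed alone. Thoracic Hoxd8 was near background, detected on 3 of 3 AngII and 1 of 3 Sham arrays. Over 46 pairs of a tested member and a group of more than 3 arrays, 0 had an array standing apart by Dixon's test, which chance gives in about 1 of 20 groups.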

How the results depend on the processing

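In the authors' log2 values, 6 members were higher and 15 lower in Sham thoracic than in Sham mesenteric arrays (13 and 6 with each of these arrays centred), and in abdominal against mesenteric arrays 5 were higher and 10 lower. With the titles' numbers as a replicate block these were 6, 15, 4 and 10. Those values shift the median of all transcripts to 0.12 (abdominal minus thoracic), -0.28 (thoracic minus mesenteric) and -0.20 (abdominal minus mesenteric), against -0.01, 0.07 and 0.05 here. Reversed members were, without and with the block, Hoxa3 (-0.11 and -0.11) and Hoxb2 (-0.029 and -0.024) for thoracic minus mesenteric and Hoxa5 (-0.17 and -0.10), Hoxa7 (-0.077 and -0.046), Hoxd8 (-0.16 and -0.15) and Hoxd9 (-0.17 and -0.18) for abdominal minus mesenteric. With AngII in thoracic aorta, 1 member was higher and 5 lower without background correction, and likewise under a robust prior with a trend. Over all vessels, cyclic loess gave 1 higher and 1 lower, testing all transcripts gave 0 lower, and 1 was lower without the Sham abdominal array rich in muscle and 1 with column numbers as a random block, an alternative chosen after seeing the data. Members whose AngII effect differed between thoracic and mesenteric arrays numbered 3 in the authors' values, 3 with each array centred and 2 with the block. The cause was not tested.

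Leaving out 1 array gave 1 to 3 members lower with AngII in thoracic aorta, 0 to 3 over all vessels, 6 to 9 higher in abdominal against mesenteric arrays, 8 to 9 lower in abdominal against thoracic arrays and 0 to 2 in the thoracic and mesenteric interaction. Of 474 values for single members without 1 array, 419 kept direction and call, 55 lost the call and 0 reversed, and of 726 under other settings 682 kept both, 32 lost the call and 12 reversed. Same-numbered abdominal and thoracic arrays deviated together, and with these pairs as a replicate block, an alternative chosen after seeing the data, the authors' values gave 13 higher and 9 lower in Sham abdominal aorta, as without it, and lost the Hoxa4 call alone (adjusted p = 0.238), which was also lost without it. Among the other same-numbered pairs, correlations were above 0.1 in 7 of 21 by title (-0.56 to 0.86) and 2 of 10 by column. Those by title include AngII with Sham arrays of the same vessel, which are of different mice. Both ends of the range come from such pairs of mesenteric arteries. Whether numbers pair other vessels was not settled. Signal over background limits the Hoxd3, Hoxd10, Hoxb9 and Hoxc4 values.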
